A study of Mus musculus with 2 samples.

Results

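The cells described here are the MC38 spheroid cells with the highest transcript share of 7 genes: Mxd4, Osr2, Fndc7, Igsf3, Kdm7a, Zbtb20 and Bhlhe41. Each kept cell was scored by the share of its unique molecular identifiers (UMIs, 1 per captured transcript) that fell on these genes, and the top 15% of the pooled cells of both libraries were taken. There were 834 such cells among 5554 kept cells, 340 of 2198 in the IgG library and 494 of 3356 in the aPD-1 library. Because the 7 genes chose the cells, their own levels are a description and support nothing.

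Quiescent cells have left the division cycle reversibly. They keep few transcripts for DNA replication and mitosis, make fewer ribosomes, and often hold higher levels of cell cycle inhibitors and of antiproliferative factors. Mxd4 is a partner of MAX that occupies the same E-box sequences as MYC and represses them, Bhlhe41 is a basic helix-loop-helix repressor of the circadian clock that also binds E-boxes, Zbtb20 and Osr2 are zinc finger transcription factors, Kdm7a is a histone demethylase of the jumonji family, and Igsf3 and Fndc7 carry immunoglobulin and fibronectin domains.

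MC38 is a mouse colon carcinoma line, grown here as tumours in C57BL/6 albino mice. Dissociated tumour pieces of 40 to 100 µm were cultured in collagen in a microfluidic chip for 6 days with a control antibody (IgG, clone 2A3) or with an antibody that blocks the inhibitory T cell receptor PD-1 (aPD-1, clone RMP1-14), both at 10 µg/mL. Tumour cells were then sorted by flow cytometry, by markers that the labels do not name, and 1 library of 3′ single-cell RNA was made for each treatment. Both groups share the line, the host strain, the chip and the sort. Whether a library came from 1 tumour or from several is not given either.

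With 1 library per treatment there was no replicate and no test: every interval below is a 95% interval of counting error within a library, and differences between libraries cannot be told apart from sorting, loading and culture. The IgG file listed 4351 barcodes, and the aPD-1 file 737280, which include droplets without a cell, so their totals of 52720076 and 68385785 UMIs are not like quantities. Kept cells held 49422640 and 61462778 UMIs (a floor of 5000 UMIs and 500 genes, a ceiling of 10% mitochondrial UMIs). The median depth was 20663 and 16577 UMIs per cell. Only 8 kept barcodes occurred in both libraries.

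The score had no gap at the cut, as the plot of the score by library shows. The cut lay at 8.15 UMIs per 10000, and the 3 members just inside it had scores of 8.149, 8.157 and 8.163, with 5, 10 and 9 UMIs of the 7 genes. The 3 cells just outside had 8.139, 8.137 and 8.129, with 21, 8 and 12 such UMIs. Within 10% of the cut there were 164 members and 172 other cells, so the group is a range of a score and not a separate type. Median scores were 10.8 in the members of either library, against 2.73 in the other IgG cells and 2.66 in the other aPD-1 cells.

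**Figure D1:**
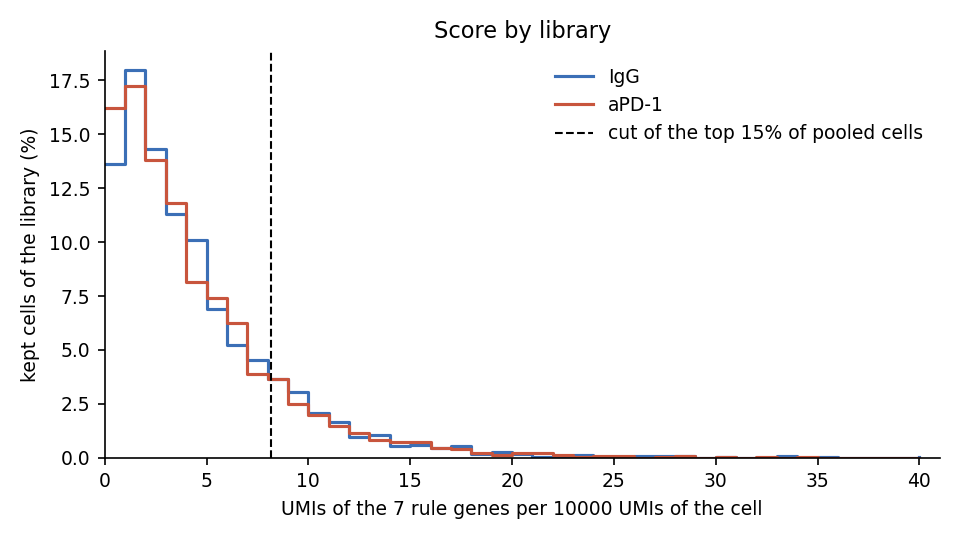
Distribution of the score in the IgG and aPD-1 libraries, as the percentage of each library's kept cells (y) in steps of 1 UMI of the 7 genes per 10000 UMIs (x). The dashed line at 8.15 marks the cut of the top 15%, and both libraries run through it without a second peak.

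Members were shallower than the other cells and held more nuclear and mitochondrial RNA. Their median depth was 15004.5 UMIs against 21885.5 in IgG and 12195.5 against 17702 in aPD-1. The median mitochondrial share was 3.50% against 2.85% in IgG and 4.23% against 3.50% in aPD-1. Malat1 and Neat1, long noncoding RNAs kept in the nucleus, made up a median of 1.67% of a member's UMIs against 0.763% in IgG, and 1.61% against 0.650% in aPD-1. The part of depth and RNA quality in the differences below was not tested, but each leading list is also given for depth-matched members, the top 15% within each of 10 equal groups of a library ordered by depth. The depth-matched members had medians of 20716.5 UMIs against 20663 in IgG and 16553 against 16579 in aPD-1.

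Most members did not owe their score mainly to 1 gene. A median of 5 of the 7 was detected in a member and of 3 in another cell, which the choice by their sum favours. Still, 24.4% of IgG and 24.5% of aPD-1 members owed more of their score to 1 gene than to the other 6 together. That share was 36.1% and 38.5% in the other cells, which held fewer UMIs of the 7 genes (medians of 6 and 5 against 17 and 14). Bhlhe41 was the single largest contributor in 118 of 340 IgG members (34.7%) and in 75 of 494 aPD-1 members (15.2%). Osr2 led in 70 IgG members (20.6%) and 148 aPD-1 members (29.96%), and Zbtb20 in 62 (18.2%) and 82 (16.6%). Mxd4, although named first, led in only 14 and 16.

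Levels are given as CPM, the counts of a gene per 1000000 UMIs, of the summed cells. Mxd4 (ENSMUSG00000037235, minus strand of chromosome 5, 34173883 to 34187720, GRCm38) stood at 129 CPM in IgG members against 29.9 in other IgG cells, and at 96.3 against 19.5 in aPD-1. Bhlhe41 (ENSMUSG00000030256, minus strand of chromosome 6, 145858243 to 145865558) stood at 289 against 56.4 CPM and at 198 against 39.9 CPM. Both libraries thus held the same order, which the choice of cells fixes. Zbtb20 (chromosome 16, 42875881 to 43642602) was at 242 against 68.1 CPM in IgG and 242 against 65.2 CPM in aPD-1. Osr2 (chromosome 15, 35296098 to 35303305) was at 229 against 52.9 CPM and 297 against 57.3 CPM. The remaining 3, Fndc7, Igsf3 and Kdm7a, lay between 93.5 and 134 CPM in members and between 17.7 and 37.2 CPM in other cells.

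Measures that the choice of cells did not use gave smaller ratios in the same direction. When the UMIs of each cell were split at random into equal parts, with members chosen on the first and measured on the second, Mxd4 was 3.61-fold (interval 3.15 to 4.13) higher in IgG members and 3.65-fold (3.13 to 4.25) in aPD-1. Bhlhe41 was 3.84-fold and 3.71-fold, Osr2 3.67-fold and 3.70-fold, and Fndc7 3.43-fold and 3.97-fold. Igsf3, Kdm7a and Zbtb20 lay between 2.60 and 2.78. When a gene was left out of the score and the top 15% chosen again from the other 6, it was still higher in those cells: Mxd4 by 3.20-fold in IgG and 3.42-fold in aPD-1, Fndc7 by 3.37-fold and 3.40-fold, Zbtb20 by 2.69-fold and 2.58-fold, and Bhlhe41, the lowest in both libraries, by 2.14-fold and 2.26-fold. Each of the 7 genes was higher in cells chosen by the others, although all 7 share the depth of a cell. The 7 were chosen as a set with earlier results of these data known. These ratios too are thus a description and support nothing. Of the 834 members, 638 (76.5%) were chosen again from part of their UMIs, and between 675 (80.9%, without Bhlhe41) and 771 (92.4%, without Fndc7) with 1 gene left out.

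**Figure D2:**
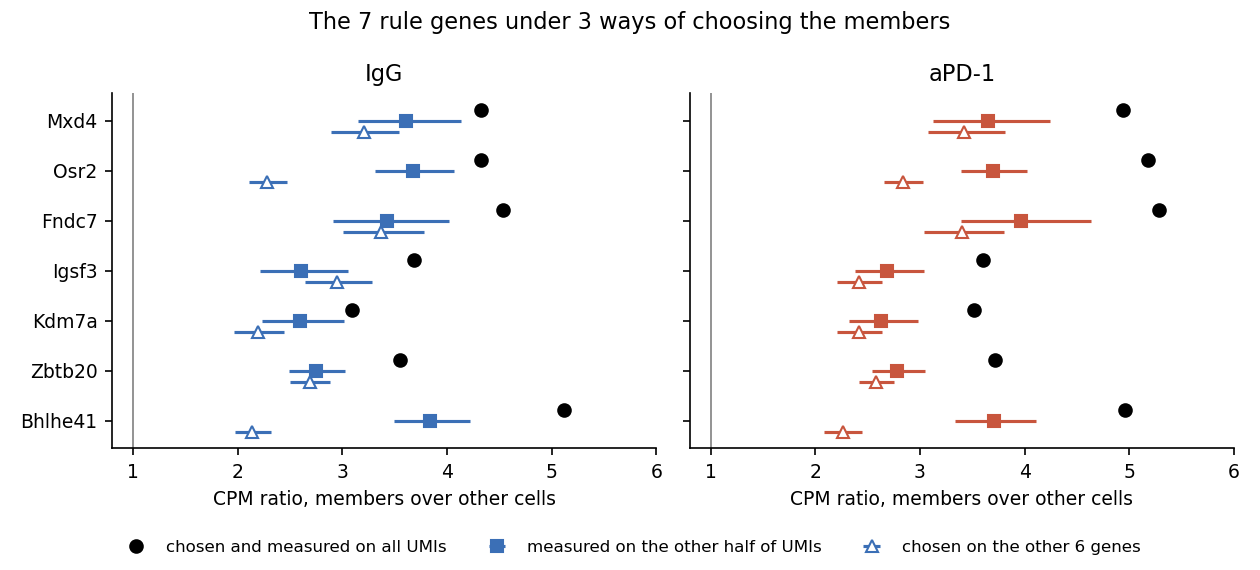
Ratio of summed CPM in members over other cells (x) for each of the 7 genes (y) in IgG (left) and aPD-1 (right). Black circles are the values that chose the cells; squares are measured on UMIs not used for the choice and triangles on members chosen from the other 6 genes, with bars for the 95% counting intervals. All squares and triangles lie above 2, to the left of their circles.

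Mxd4 and Bhlhe41 are shown by sequence because both encode E-box binding repressors and both carry the E-box letters themselves. Each line is the RefSeq promoter on GRCm38.p6, 250 bases before to 50 after the start, 5′ to 3′ on the minus strand that the gene uses, with CACGTG (its own reverse complement) in capitals. The windows are chr5:34187661-34187960 for Mxd4 and chr6:145865371-145865670 for Bhlhe41.
Mxd4: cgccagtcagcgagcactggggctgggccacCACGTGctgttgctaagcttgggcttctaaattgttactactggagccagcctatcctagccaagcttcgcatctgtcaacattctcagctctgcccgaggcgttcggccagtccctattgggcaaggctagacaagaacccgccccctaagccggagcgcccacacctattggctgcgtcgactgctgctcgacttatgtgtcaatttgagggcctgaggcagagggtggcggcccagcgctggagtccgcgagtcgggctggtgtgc
Bhlhe41: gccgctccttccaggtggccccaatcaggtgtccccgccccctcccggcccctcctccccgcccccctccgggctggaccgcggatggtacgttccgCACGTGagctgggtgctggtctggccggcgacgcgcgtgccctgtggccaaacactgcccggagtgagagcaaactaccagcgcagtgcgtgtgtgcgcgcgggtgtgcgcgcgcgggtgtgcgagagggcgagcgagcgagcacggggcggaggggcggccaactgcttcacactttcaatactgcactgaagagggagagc
CACGTG was found in 2 of the 5 rule genes that matched a promoter (Igsf3, Kdm7a and Zbtb20 were the others), in 10.9% of the 5344 promoters of tested genes and in 7.24% of all 27025 promoters. A match is a description of letters and no evidence of binding.

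Across all other genes, the members differed from the remaining cells in the same way in both libraries. To be counted, a gene had to average 10 CPM or more over members and other cells, differ by 1.5-fold or more and have an interval without 1, all in both libraries and in 1 direction. Of 6875 genes tested, 743 (10.8%) were higher in members and 454 (6.6%) lower. Taken alone, the IgG library had 15.1% of 7240 genes higher and 7.94% lower, and the aPD-1 library 14.8% of 6998 higher and 9.53% lower. None passed in opposite directions, and 6076 had ratios of the same sign in both libraries. The median log2 ratio was 0.13 in IgG and 0.10 in aPD-1, and with that median set to 0 the counts were 485 higher and 653 lower. For depth-matched members they were 275 higher and 146 lower, with 396 of the 1197 genes still counted and none of opposite sign. Among G1 cells they were 470 and 208, and among the cells at or below the median of the summed S phase and mitotic genes 292 and 84, where 24 of the 1197 genes had the opposite sign. Genes counted as higher were longer, with a median of 5972.5 exonic bases against 3385.5 for the lower genes and 4378 for all tested genes. Their median span on the genome, introns included, was 43300.5 bases against 15108.5 for the lower genes and 22393 for all tested genes. The part of length in the ratios was not tested.

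**Figure D3:**
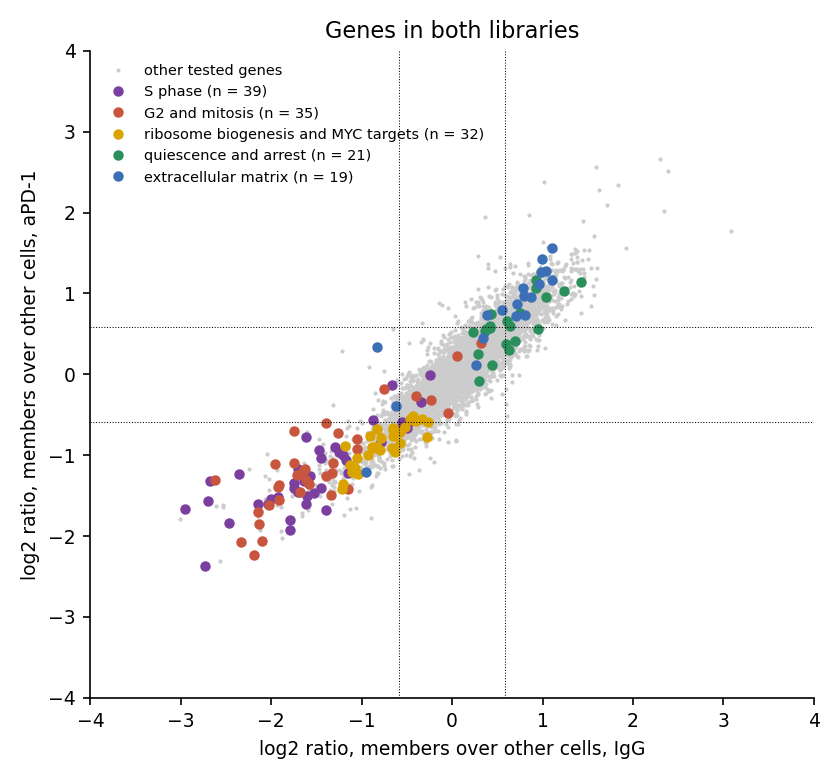
Log2 ratio of members over other cells for each tested gene in IgG (x) and aPD-1 (y), with 5 gene lists in colour and dotted lines at 1.5-fold. S phase genes and genes of G2 and mitosis sit at the lower left, quiescence and matrix genes mostly at the upper right, in both libraries.

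Members were mostly cells in G1 by their transcripts. After thinning every cell to 5000 UMIs, 94.4% of IgG members (interval 91.4 to 96.6%) and 90.1% of aPD-1 members (87.1 to 92.6%) were called G1, against 63.5% and 62.2% of the other cells. On all UMIs the shares were 93.5% and 87.4% in members and 55.3% and 50.1% in other cells. S phase was called in 6 IgG and 19 aPD-1 members, and G2 or mitosis in 13 and 30. Seen from the phases, members made up 21.4% of IgG G1 cells and 20% of aPD-1 G1 cells, but 1.79% and 3.05% of S phase cells and 3.601% and 5.91% of cells in G2 or mitosis. The calls place a cell by its RNA alone, they do not separate G1 from a resting state, and the part of free RNA in them was not tested.

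**Figure D4:**
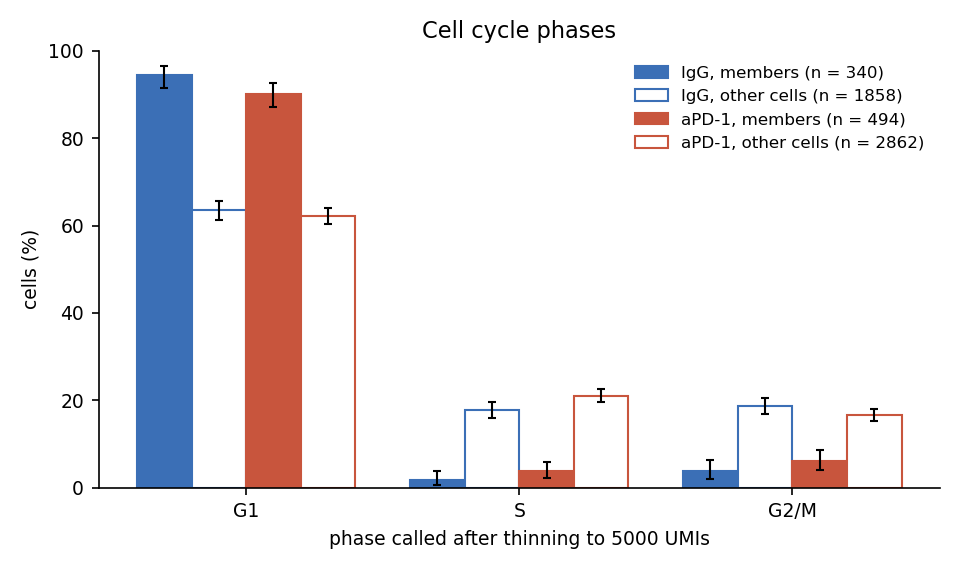
Percentage of cells (y) called G1, S or G2/M (x) after thinning to 5000 UMIs, for members (filled) and other cells (open) of IgG (blue) and aPD-1 (red), with 95% Clopper-Pearson intervals for counting error. Members exceed 90% G1 in both libraries, and the other cells lie near 63%.

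DNA replication genes were lower in members as a group: 32 of 39 tested S phase genes were counted as lower and none as higher. Of all tested genes 6.6% were lower. The median log2 ratio of the S phase genes was −1.61 in IgG and −1.32 in aPD-1. Rrm2, the small subunit of ribonucleotide reductase, stood at 13.0 CPM in IgG members against 86.3 in the other cells, and at 14.9 against 77.1 CPM in aPD-1, a ratio of 0.15 (interval 0.12 to 0.19) and 0.19 (0.16 to 0.24). Its members lay far under the other cells in both libraries. Rpa2, a subunit of the complex that coats single-stranded DNA, was at 10.7 against 37.1 CPM and 10.5 against 36.5 CPM. Outside the S phase list, Mybl2, a factor that activates late cell cycle genes, was at 7.70 against 33.6 CPM and 13.5 against 51.0 CPM. Cdca7, a chromatin protein of cycling cells and also outside the list, was at 13.0 against 48.2 CPM and 11.3 against 43.3 CPM. Of the list's 7 genes that were not counted, Casp8ap2 was at 27.4 against 32.4 CPM in IgG and 28.0 against 28.3 CPM in aPD-1.

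Mitotic genes followed, with 29 of 35 tested genes lower beside 6.6% of all tested genes, none higher, and median log2 ratios of −1.61 and −1.22. Hmmr, a spindle protein, stood at 8.82 against 40.4 CPM in IgG and 7.05 against 33.0 CPM in aPD-1, with ratios of 0.22 (interval 0.16 to 0.29) and 0.21 (0.16 to 0.29). Ccna2 and Ccnb1, the cyclins of S phase to mitosis, had ratios of 0.20 and 0.23 in IgG and 0.24 in aPD-1 for both. Cdca8, a subunit of the chromosomal passenger complex, had ratios of 0.23 and 0.28. Outside the mitotic list, the kinetochore gene Ska1 had ratios of 0.23 and 0.24, and Fam64a, a gene of mitotic cells, 0.17 and 0.20. Pttg1, which encodes securin, the inhibitor of chromatid separation, was not lower: it was at 70.8 against 68.0 CPM and 65.2 against 55.5 CPM. Replication histones were lower in 4 of 7 tested genes, with Hist1h2ae at 11.6 against 42.9 CPM and 8.46 against 34.5 CPM. Hist1h1c and Hist1h2bc were higher instead, Hist1h1c at 65.5 against 35.3 CPM and 72.4 against 35.8 CPM. Near-identical histone genes can share reads.

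The promoters of Cdca8 and Hmmr are shown because the mitotic genes lower in members often held the letters of the cell cycle homology region, TTTGAA, a sequence known from genes silenced in resting cells. It is in capitals below, as is TGTTTGC in Hmmr, the reverse complement of the forkhead letters GCAAACA. Both strands were searched and neither match overlaps the other. The windows are chr4:124936868-124937167 and chr11:40733388-40733687, both on the minus strand (RefSeq, GRCm38.p6).
Cdca8: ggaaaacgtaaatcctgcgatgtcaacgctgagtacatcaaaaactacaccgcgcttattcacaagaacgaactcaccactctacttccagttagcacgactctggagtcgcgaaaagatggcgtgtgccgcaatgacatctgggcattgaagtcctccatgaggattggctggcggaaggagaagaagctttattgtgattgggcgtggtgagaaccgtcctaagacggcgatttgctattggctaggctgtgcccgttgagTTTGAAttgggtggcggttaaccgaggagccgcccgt
Hmmr: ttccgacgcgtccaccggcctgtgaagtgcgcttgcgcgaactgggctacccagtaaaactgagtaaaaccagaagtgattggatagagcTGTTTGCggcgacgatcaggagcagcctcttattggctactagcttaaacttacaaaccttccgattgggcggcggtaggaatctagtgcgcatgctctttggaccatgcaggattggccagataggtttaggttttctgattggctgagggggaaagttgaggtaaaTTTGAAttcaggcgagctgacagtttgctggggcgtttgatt
TTTGAA or its reverse complement was in 17 of the 24 mitotic genes lower in members that matched a promoter (70.8%). A share over the whole mitotic list was not measured, so the 70.8% cannot be tied to being lower in members. The share with these letters was 16.0% among the 25 S phase genes lower in members and 20.3% over all 349 lower genes with a promoter. It was 6.65% over the 571 higher ones and 10.98% over all 5344 tested. Over all 27025 promoters it was 18.1%. GCAAACA was in 3.33% of the higher genes and 4.58% of the lower ones, beside 3.37% of all tested genes and 5.04% of all promoters. The second forkhead word, TGTTTAC, was in 3.50% of the higher genes and 1.15% of the lower ones, the latter from 4 promoters. Its share was 2.47% of all tested genes and 3.55% of all promoters.

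Both cell cycle lists were also summed in subsets of the cells. Summed S phase UMIs were 895 CPM in IgG members against 2268 in the other cells (ratio 0.394, interval 0.383 to 0.406), and 1036 against 2264 CPM in aPD-1 (0.458, 0.446 to 0.469). On UMIs not used for the choice the ratios were 0.45 and 0.46, and for depth-matched members 0.59 and 0.68. The G2 and mitosis sums had ratios of 0.401 and 0.476, and of 0.54 and 0.72 for depth-matched members, where 19 of its genes were counted. Among G1 cells alone the S phase ratios were 0.60 and 0.54, with 19 genes counted as lower, and those of the mitotic list 0.56 and 0.52, with 14. Among the cells at or below the median of both lists combined the ratios were 0.81 to 0.88, and 4 S phase and 3 mitotic genes were counted. The G1 calls and this low cell cycle subset were chosen on these same lists, which narrows the gap by construction.

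Genes of ribosome assembly and other MYC targets were lower in 22 of 32 cases, with none higher and median log2 ratios of −0.79 and −0.87. Of all tested genes 6.6% were lower. Dkc1, the pseudouridine synthase of small nucleolar particles, stood at 32.3 against 75.3 CPM in IgG and 32.1 against 85.6 CPM in aPD-1. Srm, spermidine synthase, was at 60.3 against 139 CPM and 62.7 against 161 CPM, ratios of 0.43 and 0.39. Hspd1, a mitochondrial chaperonin, was at 265 against 557 CPM and 218 against 488 CPM. Summed, the list stood at 8489 against 13848 CPM in IgG and 7991 against 13803 CPM in aPD-1. Its ratios of 0.61 and 0.58 became 0.72 and 0.74 for depth-matched members (9 genes lower), 0.69 and 0.64 among G1 cells (14 lower) and 0.75 and 0.72 in the low cell cycle cells (5 lower). The ribosomal proteins themselves were barely different, with none of 43 counted and median log2 ratios of −0.16 and −0.13.

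MYC and its network were not lower with them. None of the 6 tested genes of the MYC and MAX network, other than Mxd4, was counted in either direction, and their median log2 ratios were 0.33 and 0.25. Myc stood at 105 against 95.9 CPM in IgG and 81.8 against 81.5 CPM in aPD-1. Max, the shared partner, was at 55.7 against 46.3 CPM and 53.7 against 48.4 CPM. Mnt, Mga and Mxi1, which act with MAX against MYC, had ratios between 1.28 and 1.52 that missed the 1.5-fold in at least 1 library.

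Of 21 tested genes linked to quiescence and growth arrest, 8 were higher in members and none lower, beside 10.8% of all tested genes higher. Median log2 ratios were 0.61 and 0.57. Zfp36l1, which with its relative Zfp36l2 speeds the decay of cyclin messages, stood at 660 against 321 CPM in IgG and 592 against 304 CPM in aPD-1. Klf4, a factor that restrains division in epithelia, was at 593 against 311 CPM and 655 against 292 CPM. Sesn1, a stress-induced inhibitor of mTORC1, was at 22.1 against 8.23 CPM and 16.4 against 7.43 CPM. Ypel3, a gene linked to growth arrest, was at 38.9 against 16.5 CPM and 31.3 against 15.3 CPM, and Ypel5, Ccng2, Btg1 and Zfp36l2 completed the 8. Foxo3, a factor of resting cells, was at 35.5 against 18.4 CPM in IgG but 29.9 against 20.3 CPM in aPD-1 and was not counted. Among depth-matched members 4 genes of the list were counted, and 4 among G1 cells. In the low cell cycle cells 2 were counted, and the summed ratios were 1.23 and 1.29 in place of 1.55 and 1.67.

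Inhibitors of the cyclin-dependent kinases were mostly not counted. Of 9 tested genes of that list, which includes the pocket protein complex, 1, Cdkn2c, was higher, a share near the 10.8% of all tested genes, at 74.9 against 47.0 CPM in IgG and 67.8 against 43.1 CPM in aPD-1. Cdkn1a, which encodes p21, was at 56.1 against 55.3 CPM in IgG and 68.9 against 87.2 CPM in aPD-1. Cdkn1b, which encodes p27 and is a usual mark of quiescence, was at 39.8 against 25.5 CPM and 27.1 against 18.3 CPM, ratios of 1.56 and 1.48 that missed the 1.5-fold in aPD-1. Of 15 p53 targets 1 was higher, Sesn1, and 2 lower, Gdf15 and Aen. The word quiescent in the name of these cells thus rests on counts in the cell cycle, ribosome assembly and arrest lists. The kinase inhibitors add none beyond the share of all genes. In the low cell cycle cells 4 S phase, 3 mitotic, 5 ribosome assembly and 2 arrest genes stayed counted. Whether members were at rest or only in G1 was not tested.

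Some relatives of the rule genes were higher too, and none was lower, beside 10.8% higher and 6.6% lower of all tested genes. Among 11 tested clock genes, Bhlhe40, the close relative of Bhlhe41, stood at 341 against 174 CPM in IgG and 297 against 155 CPM in aPD-1. Dbp, a clock output factor, was at 30.97 against 13.7 CPM and 22.9 against 12.5 CPM, and Per1, a core repressor, at 26.7 against 14.6 CPM and 31.01 against 16.0 CPM. None of the 11 was lower, and Clock, Nr1d1 and Nfil3 had ratios between 0.83 and 1.24. Among 12 tested jumonji demethylases other than Kdm7a, 4 were higher (Jmjd1c, Kdm4b, Kdm5b and Kdm6b) and none lower. Kdm5b, which removes a mark of active promoters, was at 40.7 against 15.6 CPM and 31.2 against 11.5 CPM. Of 10 tested BTB zinc finger factors other than Zbtb20, 4 were higher: Zbtb7a, Zbtb7c, Hic1 and Bcl6.

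Extracellular matrix genes were higher in 12 of 19 tested cases, and 1, Thbs2, was lower. Of all tested genes 10.8% were higher and 6.6% lower. Col3a1, a fibrillar collagen, stood at 567 against 263 CPM in IgG and 458 against 155 CPM in aPD-1, ratios of 2.16 (interval 2.07 to 2.24) and 2.96 (2.84 to 3.09). Mmp2, a secreted gelatinase, was at 26.8 against 13.5 CPM and 30.9 against 11.5 CPM. The summed list had ratios of 1.64 and 1.78, of 1.48 and 1.52 for depth-matched members, of 1.40 and 1.58 among G1 cells, and of 1.27 and 1.40 in the low cell cycle cells, where none of its genes was counted. Signalling genes lay on the same side, also above the 10.8% of all tested genes. Of 12 tested genes of TGF-beta and activin signalling 8 were higher, among them the ligand Tgfb2 at 62.5 against 28.5 CPM and 59.4 against 24.9 CPM and the inhibitor Smad7. Of 6 Notch pathway genes 4 were higher, among them the receptor Notch2 at 60.1 against 20.7 CPM and 39.3 against 21.9 CPM. Hes1, a Notch target in the same list, was not counted. The summed Notch list had ratios of 1.40 in IgG and 1.44 in aPD-1, and of 1.21 and 1.30 for depth-matched members. Of 7 BMP pathway genes 3 were higher: the receptor Bmpr2 and the helix-loop-helix inhibitors Id1 and Id3, with Id1 at 209 against 87.7 CPM and 100.1 against 39.7 CPM.

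Fibroblast markers moved with membership, at a larger share than the 10.8% of all tested genes that were higher. Of the 12 in the list, 9 were tested and 8 were higher in members, Dcn, Gsn, Lbp, Dpt, Col1a1, Col3a1, Pdgfra and Pdgfrb. Lum and Thy1 had 0 UMIs in members of both libraries and Col1a2 3 and 14 UMIs. Dcn, Col1a1 and Col3a1 were also counted as higher in the matrix list, so the 2 results are not separate. Summed, the fibroblast list stood at 1920 against 1028 CPM in IgG and 1386 against 671 CPM in aPD-1. The top 15% of cells for this list held 34.7% of IgG members against 17.5% of the other IgG cells, and 25.3% against 9.26% in aPD-1. Its part in the matrix genes was measured by leaving out the top 15% of cells for Gsn, Lbp, Dpt and Dcn. The matrix list then had ratios of 1.52 and 1.74, S phase 0.38 and 0.47, and 750 genes were higher and 545 lower. Of members with and without that signature, the matrix list was at 8123 against 4356 CPM in IgG and 7947 against 4300 CPM in aPD-1. Dcn belongs to both lists, at 1473 against 317 CPM and 1395 against 296 CPM in these cells, so that part of the gap was fixed by the choice. The 7 genes were at 1207 against 1159 CPM and 1299 against 1165 CPM in the same cells.

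Markers of most other cell types were at or near 0. Cd3e (T cells), Ms4a1 (B cells), S100a9 (neutrophils) and Krt18 (epithelium) had 0 UMIs in members and in other cells, so they do not set members apart. Some genes of these lists were detected. Cd79a (B cells) had 24 UMIs in IgG members and 30 in aPD-1 members, with ratios of 1.79 and 1.68 over other cells. Cd79b had 13 and 1 UMIs, with ratios of 2.83 and 0.54. Cd3d had 3 and 2 UMIs, and S100a8 2 and 2. Epcam had 0 UMIs in members of both libraries, although MC38 is of epithelial origin. The 12 macrophage markers summed to 23.1 CPM in IgG members against 44.4 in other cells, and to 18.2 against 16.3 CPM in aPD-1. The 10 endothelial markers summed to 34.0 against 70.6 CPM and 15.8 against 22.6 CPM. The 7 pericyte and muscle markers summed to 35.1 against 19.8 CPM in IgG and 36.7 against 15.3 CPM in aPD-1, ratios of 1.77 (interval 1.51 to 2.08) and 2.39 (2.06 to 2.77). Their part in the results was not tested. Des, a muscle filament gene, was at 12.4 against 4.85 CPM and 10.5 against 3.29 CPM, with a mean under 10 CPM in either library, so it was not tested. Cspg4 was higher, at 19.0 against 6.87 CPM and 21.8 against 9.13 CPM, whereas Rgs5 and Myh11 had 0 UMIs in IgG members and 1 UMI each in aPD-1 members.

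The largest differences outside the cell cycle included genes better known from lymphocytes. Spib, an Ets factor of B cells and plasmacytoid dendritic cells (minus strand of chromosome 7, 44525993 to 44532071), stood at 92.4 against 18.8 CPM in IgG and 41.8 against 6.61 CPM in aPD-1. The ratios were 4.92 (interval 4.39 to 5.51) and 6.33 (5.38 to 7.43), and 167 IgG and 151 aPD-1 members had at least 1 of its UMIs. Ighm, the constant region of immunoglobulin M, was at 39.4 against 7.51 CPM and 21.6 against 3.78 CPM. Rac2, a small GTPase of blood cells, was at 79.6 against 15.7 CPM and 28.5 against 7.06 CPM. The B cell list beside them was low: Ms4a1 was at 0 in all kept cells, and the list of 4 markers summed to 6.95 against 3.38 CPM in IgG and 4.86 against 3.09 CPM in aPD-1. Nfatc2, a calcineurin-controlled factor, was at 57.4 against 17.5 CPM and 54.5 against 12.8 CPM.

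Other leading genes were of several kinds. Cilp, a secreted matrix protein, stood at 93.3 against 31.001 CPM in IgG and 74.2 against 12.6 CPM in aPD-1. Fxyd1, a regulator of the sodium pump, was at 56.5 against 15.8 CPM and 39.8 against 7.88 CPM. Pdcd4, an inhibitor of translation initiation, was at 52.7 against 17.7 CPM and 35.9 against 10.9 CPM. Pde4d, a cyclic AMP phosphodiesterase, had ratios of 3.78 and 2.95, Jup, which encodes plakoglobin, 3.08 and 4.84, Ssc5d, a secreted scavenger receptor protein, 2.85 and 2.90, and the gap junction gene Gja4 2.76 and 2.91. Ptgds, a prostaglandin D synthase, had a ratio of 8.48 in IgG and 3.41 in aPD-1, but 1 IgG member held 25.8% of the 550 UMIs behind it, and 60 of 340 members had any.

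Stress and metabolic lists divided. Immediate early genes were higher in 8 of 20 cases, with Egr2 at 75.5 against 39.7 CPM in IgG and 45.3 against 22.8 CPM in aPD-1, while Ier3, also of this list, was lower, at 103 against 260 CPM and 113 against 344 CPM. Genes of the ATF4 response were lower in 7 of 19 cases and higher in 1. Asns, asparagine synthetase, was at 34.0 against 86.4 CPM and 26.2 against 70.3 CPM, whereas the cystine transporter Slc7a11 was at 95.7 against 46.5 CPM and 108 against 62.3 CPM. Heat shock genes were lower in 2 of 13 cases, Hsp90aa1 at 617 against 1166 CPM and 442 against 877 CPM. Some lists had counts near the 10.8% higher and 6.6% lower of all tested genes: 3 of 20 hypoxia genes were higher (Vegfa, Pfkfb3 and Bhlhe40) and 1 lower, and 4 of 24 lysosome and autophagy genes were higher. No gene was counted among 15 of glycolysis, 22 of cholesterol synthesis, 21 of the interferon-gamma response and 13 of MHC class I. In the type I interferon list of 25 tested genes none was lower, and Ifi27l2a, an interferon-induced gene, stood at 617 against 279.8 CPM and 486 against 167 CPM. The median log2 ratio of the MHC class I list, 0.07 in IgG and 0.23 in aPD-1, changed sign in IgG when the median of all genes was set to 0. Of 15 mesenchymal and stem-like factors 4 were higher, among them Sox9 at 680 against 329 CPM and 775 against 386 CPM, and 2 were lower, Hmga1 and Hmga2.

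The differences built up along the whole score and had no step at the cut. From the lower 50% of cells to the top 5%, the S phase sum was 2707, 1575, 1270, 917 and 842 CPM in IgG and 2625, 1670, 1236, 1075 and 946 CPM in aPD-1. The quiescence list ran the other way, from 2184 to 4274 CPM in IgG and from 2025 to 4533 CPM in aPD-1, and was higher in each band than in the one before. Matrix genes went from 2840 to 6227 CPM and from 2286 to 5377 CPM. Cholesterol synthesis showed no such order in aPD-1. Malat1 and its fellow nuclear RNAs went from 6843 to 25143 CPM and from 5792 to 22377 CPM, and median depth from 24052.5 to 13018 UMIs and from 19848 to 11210.5 UMIs, so both changed with the score. Among cells at or below the median share of Malat1 and Neat1, where 49 IgG and 77 aPD-1 members remained, the S phase ratios were 0.44 and 0.48, the mitotic ones 0.65 and 0.74 and the quiescence ones 1.53 and 1.71. There 12 mitotic genes were counted as lower, and 517 genes in all were higher and 281 lower. Of the 1197 genes counted over all cells, 599 were counted there and 6 had the opposite sign.

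**Figure D5:**
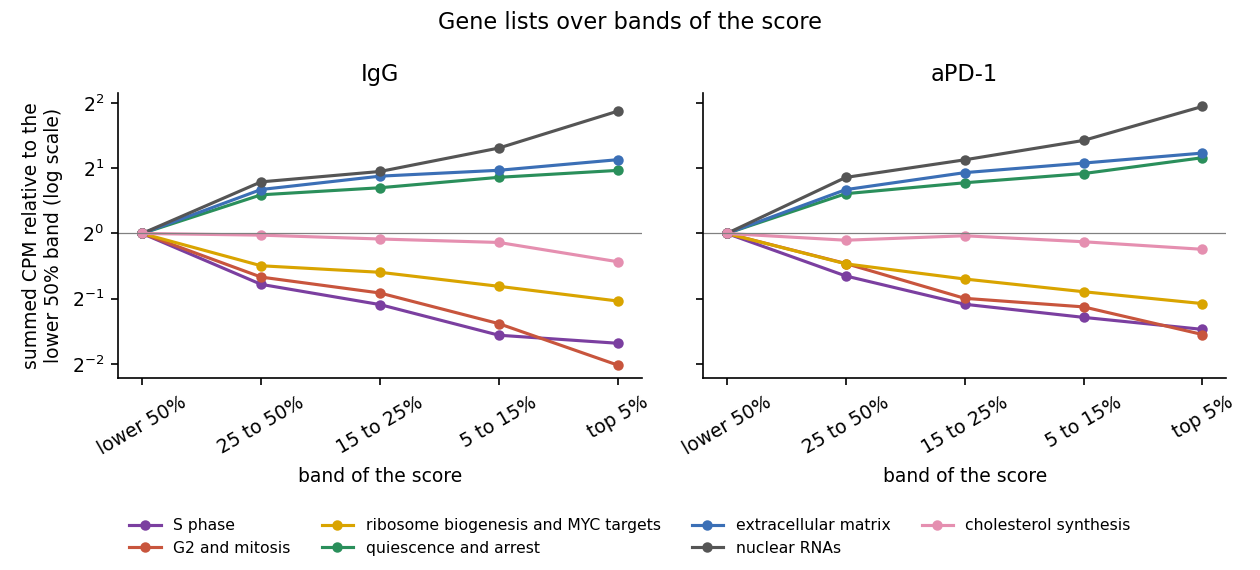
Summed CPM of 7 gene lists (y, log scale, relative to the lower 50% of cells) over 5 bands of the score (x) in IgG (left) and aPD-1 (right). S phase, mitotic and ribosome assembly lists go down and the quiescence, matrix and nuclear RNA lists go up from band to band in both libraries.

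Members made up a like share of both libraries. Their share was 15.5% in IgG, with an interval from 14.0 to 17.0%, and 14.7% in aPD-1, with one from 13.5 to 16.0%, so the intervals overlap. Which library had the larger share depended on the choice of genes and cells. Without Mxd4 in the score the shares were 14.97% in IgG and 15.05% in aPD-1, and without the Gsn, Lbp, Dpt and Dcn high cells 12.9% and 13.3%, with overlapping intervals in either case. Without Bhlhe41 they were 13.3% (11.9 to 14.8%) in IgG and 16.2% (14.9 to 17.4%) in aPD-1. Over all kept cells Bhlhe41 stood at 56.2 CPM in aPD-1 against 81.5 in IgG, a ratio of 0.69 (interval 0.66 to 0.72), and Mxd4 at 27.5 against 40.6 CPM (0.68). Igsf3 was on the other side, at 47.3 against 33.6 CPM (1.41), as were Kdm7a (1.21) and Osr2 (1.14), and Zbtb20 was at 83.5 against 86.8 CPM. The genes thus contributed to the score in different proportions in the 2 libraries.

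Within members, more genes were lower than higher in aPD-1. Of 7258 genes tested between the libraries with the same limits, 95 (1.31%) were higher in aPD-1 members and 449 (6.19%) lower. The other cells gave 37 higher (0.535%) and 211 lower (3.05%) of 6916. The median log2 ratio in members was −0.12, and with it set to 0 the counts were 197 higher and 233 lower. Sums over members hold fewer UMIs and vary more by counting, and whether members and other cells differ in these counts was not tested. Of the genes counted in members, 16 of the 95 and 117 of the 449 were also counted in the other cells, which is 16.8% and 26.1% of the members' lists and 43.2% and 55.5% of the other cells' lists, and 81 and 438 had the same sign there.

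Genes higher in aPD-1 members included Hmga2, an architectural chromatin protein, at 44.2 CPM against 14.5 in IgG members, and at 68.6 against 31.9 CPM in the other cells. Inhba, a subunit of activin, stood at 35.6 against 10.9 CPM in members and 24.2 against 17.1 CPM in the others. Mical2, an actin-oxidising enzyme, was at 32.4 against 9.57 CPM in members and 16.4 against 8.35 CPM in the others. Top2a, a topoisomerase of dividing cells, was at 58.3 against 25.3 CPM and Hist1h1b at 17.7 against 4.13 CPM, the latter from 22 UMIs in IgG members. Over the lists, 3 of 27 S phase genes were higher and none lower, and 3 of 29 mitotic genes were higher and 2, Ccnb2 and Ckap5, lower, beside 1.31% higher and 6.19% lower of all genes tested. H19, a maternally expressed noncoding RNA, was at 41.7 against 19.5 CPM in members and 10.6 against 10.8 CPM in the others, and 45 of 494 aPD-1 members had any of its UMIs. Arhgap22, Rgcc, Xdh and Oasl1 had ratios between 2.15 and 2.38 in members. Some of these genes rested on few cells. Of the 494 aPD-1 members, 75 had any Inhba UMIs, 47 any of Hist1h1b and 65 any of Oasl1. The single highest aPD-1 member held 13.7%, 8.85% and 12.3% of these UMIs. Top2a was detected in 20.4% of aPD-1 members and 22.9% of IgG members. Hmga2 and Mical2 were more widely spread, each in 141 aPD-1 members, and Arhgap22 was found in 247.

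Genes lower in aPD-1 members included Hes1, a Notch target and repressor, at 46.8 CPM against 147 in IgG members and at 37.4 against 133 CPM in the others. Lbp, a lipopolysaccharide binding protein and 1 of the fibroblast markers above, was at 20.5 against 55.0 CPM in members and 7.86 against 21.1 CPM in the others. Ptn, a heparin-binding growth factor, was at 16.9 against 47.3 CPM and 8.42 against 27.8 CPM. Rac2 was at 28.5 against 79.6 CPM and 7.06 against 15.7 CPM. All 4 were also counted as lower in the other cells. Il12a and Enpp2 had ratios of 0.37 and 0.38 in members. Fry, Gad1, Ptgds and Fxyd3 rested on few cells: 1 IgG member held 41.98% of the Fry UMIs, 21.8% of those of Gad1, 25.8% of those of Ptgds and 61.9% of those of Fxyd3. No gene of the quiescence list was counted between the libraries in members, out of 22, nor of the MYC and MAX network, out of 7. Of all genes tested 1.31% were higher and 6.19% lower, and lists this small cannot set 0 apart from those shares. The median log2 ratio of the quiescence list in members was −0.20, against −0.12 for all genes tested.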

How the data were processed

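The files deposited by the authors held UMI counts per gene and barcode for 28692 genes, 1 matrix per treatment (4351 barcodes for IgG, and 737280 for aPD-1, which include droplets without a cell), made with Cell Ranger software version 3.0.2 per the file headers and build mm10 per the submitters' processing notes, which also list Seurat 2.1.0. The authors' cell annotation was not used here. Cells with at least 5000 UMIs, 500 genes and at most 10% UMIs of genes starting with mt- were kept, which left out 89 IgG and 81 aPD-1 barcodes by the mitochondrial limit. A doublet caller marked 9 of 5554 cells, too few to have worked, and 0 of them were members, so no doublets were removed. The members, the 38 gene lists and the rules were chosen with earlier results of these data known.

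Counts were summed over members and over other cells of a library and divided by all their UMIs (CPM), with exact conditional binomial 95% intervals for ratios and Clopper-Pearson intervals for shares (Python 3.11.15, numpy 2.4.6, scipy 1.17.1). UMIs from the same cell are not independent draws between cells, so all intervals cover counting error only and are too narrow for differences between cells. Phases came from scanpy 1.11.5 with the S phase and mitotic lists, after thinning each cell to 5000 UMIs; no kept cell was shallower. Named genes were the 12 counted genes with the largest ratios in each direction, 10 in each direction between the libraries, the 2 most extreme members of each list in each direction, and the genes of the rule, of 4 lists (MYC network, kinase inhibitors, arrest and clock) and of other cell types. Other genes were named after their values were seen. Gene positions are from GENCODE on GRCm38 and promoters from RefSeq on GRCm38.p6, the first listed window of each gene; Osr2, Fndc7 and Ccna2 had no entry. The scripts were tested on simulated counts.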

Additional observations from a re-analysis of the deposited data

How the results depend on the processing

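No paired analysis was possible because each treatment had 1 library. The causes of the changes below were not tested, except that a different limit on level or fold by construction admits other genes. Of the comparison-level values recomputed under alternatives, 181 stayed within counting error or within 1.5 times and 52 did not. The 743 genes higher and 454 lower in members became 275 and 146 for depth-matched members, 470 and 208 among G1 cells, 1228 and 691 at a mean of at least 1 CPM, 192 and 168 at 50 CPM, 1797 and 984 at the lower fold limit, 122 and 161 at 2-fold, and 485 higher with the median set to 0. In subsets chosen after seeing the data, they were 292 and 84 in the low cell cycle cells, and 281 lower in the cells low in Malat1 and Neat1.

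The 32 S phase genes lower became 19 among G1 cells, 5 at 50 CPM and 4 in the low cell cycle cells. The 29 mitotic genes became 19 for depth-matched members, 14 among G1 cells, 49 at 1 CPM, 8 at 50 CPM, 12 in the cells low in Malat1 and Neat1 and 3 in the low cell cycle cells. The 22 ribosome assembly genes became 9, 14, 7 and 5 for depth-matched members, among G1 cells, at 2-fold and in the low cell cycle cells. The 8 arrest genes became 4 for depth-matched members, 4 among G1 cells, 4 at 50 CPM, 5 with every cell weighted equally, 16 at the lower fold limit, 2 at 2-fold and 2 in the low cell cycle cells. The 12 matrix genes became 3 at 2-fold and 0 in the low cell cycle cells.

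Member shares in IgG and aPD-1 were 10.3% and 9.83% for the top 10%, 20.9% and 19.4% for the top 20%, 13.3% and 16.2% without Bhlhe41, and 12.9% and 13.3% without the Gsn, Lbp, Dpt and Dcn high cells. The G1 share of other cells was 55.3% and 50.1% on all UMIs and 61.1% and 60.4% after thinning to 2000 UMIs. Between libraries the counts in members became 197 higher and 233 lower with the median set to 0. For 80 named genes under 27 settings, 1911 of 2160 values kept their direction and their side of the limits, 248 kept the direction only, and 1 turned: Cdc25a had a log2 ratio of 0.028 in the low cell cycle cells.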

Other observations

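Barcodes that the mitochondrial limit left out were scored with the same cut. Of those with 10 to 20% mitochondrial UMIs, 17 of 81 in IgG (20.99%, Clopper-Pearson interval 12.7 to 31.5%) and 13 of 74 in aPD-1 (17.6%, 9.70 to 28.2%) reached it. Among kept cells the share was 15.3% at 0 to 5% and 16.6% at 5 to 10% mitochondrial UMIs in IgG, and 13.0% and 21.7% in aPD-1.

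Members overlapped other high-scoring groups, each the top 15% of pooled cells for its list, to different extents. The immediate early group held 31.8% of IgG members against 18.3% of the other IgG cells and 22.7% against 9.57% in aPD-1. The hypoxia group held 18.2% against 15.1% and 17.0% against 14.3%. The cholesterol synthesis group held 19.1% against 24.2% and 7.09% against 9.96%.

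Between the libraries, 6 of 22 cholesterol synthesis genes were lower in aPD-1 members and none higher, and 4 of 26 type I interferon genes were higher (Ifit1, Isg20, Oasl1 and Irf7) and none lower, beside 6.19% lower and 1.31% higher of all 7258 genes tested.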
